A study of Mus musculus with 12 samples.

Results

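The 85 gene entries described here encode the proteins of the cytosolic ribosome. They were chosen by symbol alone, as every row of the expression table named Rpl or Rps with a number (an a, l or x allowed after it), plus Rplp0, Rplp1, Rplp2 and Rpsa, and they are 85 of 23660 entries in that table. They carry 77 symbols, of which 6 stand on several entries (14 in all), and 53 entries belong to the large 60S subunit and 32 to the small 40S subunit. All 85 passed the filter on low counts. Per the labels, RNA was sequenced from ventricle tissue of wild-type male C57BL/6J mice aged 6 to 8 weeks, in 4 groups of 3 samples. Every gene entry carries a rat identifier (ENSRNOG prefix), however, and the genome build is not stated, so the species of the reads is not settled here. This doubt applies to all levels below, those near 0 included. The Sham group had no compound listed. The MI group had a myocardial infarction, made by tying off the left anterior descending coronary artery. The Fer-1+MI group was given ferrostatin-1 at 1 mg per kg per day, and the Lip-1+MI group liproxstatin-1 at 3 mg per kg per day, each from 24 h before the same ligation. Both compounds are known as inhibitors of ferroptosis, an iron-dependent cell death driven by lipid peroxidation. No group received a compound without infarction. The sources used here give neither the time from ligation to collection nor the part of the ventricle taken. Nothing states that replicates are separate animals, so p-values measure only the spread between these samples, which may be technical.

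Ribosomal proteins are made in matched amounts and assembled with ribosomal RNA in the nucleolus. Most of their mRNAs begin with a run of pyrimidines, the 5′ terminal oligopyrimidine (TOP) tract, through which the kinase complex mTORC1 and the RNA-binding protein Larp1 control their translation and stability. In the heart, protein synthesis rises during hypertrophic growth, and the adult muscle is known for a paralogue of its own, Rpl3l.

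The start of the transcript is where a TOP tract would lie. It is shown here for some of the members named below, from RefSeq mouse transcription starts on GRCm38.p6. Of the 77 symbols, 57 matched a mouse entry, with 66 start sites. Each window covers the 30 bases from 10 before to 20 after the start, on the gene's strand. Capitals mark the longest run that begins with C and goes on with at least 4 bases that are each C or T, and a window in lower case has none.
Rps6, chr4:86857348-86857377, minus strand: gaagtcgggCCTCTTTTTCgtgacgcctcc
Rpl35a, chr16:33056472-33056501, plus strand: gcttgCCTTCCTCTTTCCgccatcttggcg
Rps10, chr17:27635225-27635254, minus strand: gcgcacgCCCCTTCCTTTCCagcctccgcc
Rpl13a, chr7:45128726-45128755, minus strand: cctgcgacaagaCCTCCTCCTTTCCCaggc
Rplp2, chr7:141447641-141447670, plus strand: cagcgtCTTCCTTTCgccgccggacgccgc
Rpl39l, chr16:10170218-10170247, plus strand: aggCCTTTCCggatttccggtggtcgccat
Rps7, chr12:28635934-28635963, minus strand: cggtttccacccacctaCTTCCgctgtccc
Rpsa, chr9:120127756-120127785, plus strand: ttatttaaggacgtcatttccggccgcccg
Such a run on the gene's strand stood in 41 of the 66 windows (62.1%), against 35.8% of the 32851 promoters in the table. In Rps6, Rpl35a, Rps10 and Rplp2 it spans the annotated start and in Rpl13a and Rps7 it lies downstream. In Rpl39l it lies wholly upstream of the start, outside the annotated transcript, and the Rpsa window holds none. Rpl35a has 2 further annotated starts (windows chr16:33056443-33056472 and chr16:33056504-33056533), and neither holds a run. Among members named below whose windows are not printed, some hold a run (such as Rpl11 and Rplp0). Others hold none (such as Rpl5, Rpl9, Rpl37, Rps3 and Rps4x). The match describes these letters only. Given the rat identifiers, the mouse windows stand for the symbol and not for the locus counted.

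Sequencing depth was 45.5 to 60.8 M counts per sample, and 16910 genes were tested. Levels between genes are given in FPKM (fragments corrected for the length of the gene and for depth), and levels between samples in CPM (counts scaled to a common library size, with sizes adjusted by the trimmed mean of M values, TMM). The TMM factors were 1.08 to 1.09 in Sham and 0.96 to 0.99 in the 9 samples with ligation, so a CPM difference between Sham and the others includes this scaling. Marker genes of heart muscle summed to 14666 FPKM or more in every sample, carried mainly by Actc1 (mean 5246 FPKM), Nppa (4493) and Tnnt2 (2141). Other markers known to be abundant in adult ventricle were low. Myoglobin (Mb) was at 23.8 FPKM, the muscle creatine kinase Ckm at 40.9, the globins Hbb and Hba-a1 at 6.0 and 8.98, and the endothelial genes Kdr and Cdh5 at 6.47 and 9.58. Of the 5 neutrophil markers, Csf3r, Cxcr2, Mpo and S100a9 were each under 1 FPKM on average and S100a8 was at 1.75 FPKM. High in every sample, Sham included, were Nppa (3801 FPKM or more), the fibroblast marker Col1a1 (1589 or more) and the smooth muscle marker Acta2 (916 or more). Ventricle is the word of the labels, and whether these levels match it was not tested.

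Ribosomal protein genes were among the most abundant entries of the tissue. Their median level was 511 FPKM, against 1.78 FPKM over all genes, and 28 of the 100 highest genes were members. Rplp0, the stalk protein that anchors the acidic P proteins, stood first at 1802 FPKM, followed by Rpsa, the laminin receptor homologue of the small subunit, at 1394 FPKM. The next were Rpl10 at 1319 FPKM, Rplp1 at 1252 FPKM and Rpl41 at 1140 FPKM, and 47 members exceeded 500 FPKM. At the other end Rpl3l stood at 0.118 FPKM, Rpl39l at 3.99 FPKM and Rpl38 at 4.16 FPKM. These levels are per entry and not per protein: 119 further loci are described in the table as ribosomal proteins without bearing a member's symbol, and together they held 20.7% as much FPKM as the members. Of 78 proteins named in the descriptions, 5 (L22, S14, S19, S26 and S30) had no member, and in 8 the members held under 50% of the protein's FPKM. For S29 the member held 2.15%, for L9 8.36%, for L38 16.2% and for L39 23.4%. The share was 35.4% for P2, 43.6% for L35A, 46.6% for L8 and 49.0% for S6. The low level of Rpl38, Rps29, Rpl39 and Rpl9 is therefore the level of one locus among several. Values given below for Rplp2, Rpl35a and Rps6 are likewise those of single loci, with most of the protein's FPKM at other loci.

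Infarction came with a small rise of ribosomal protein mRNA. The summed level was 35142, 38021 and 36848 CPM in the 3 Sham samples and 45673, 42630 and 43061 CPM in the 3 MI samples. Every MI sample was above every Sham sample, and the ratio of means was 1.19 on this scale. As a plain share of all counts, without TMM, the members took 3.98% ± 0.147 (SD, n = 3) in Sham and 4.25% ± 0.151 in MI, and the ratio was 1.07. On that share MI 1 was highest at 4.42%, Sham 1 was lowest at 3.82%, and each of the other MI samples (4.14% and 4.18%) lay above the highest Sham sample (4.11%). Summed FPKM gave 43664 ± 1828 in Sham and 46773 ± 994 in MI. In bulk tissue, more cells rich in these mRNAs and more of these mRNAs per cell cannot be told apart.

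**Figure D1:**
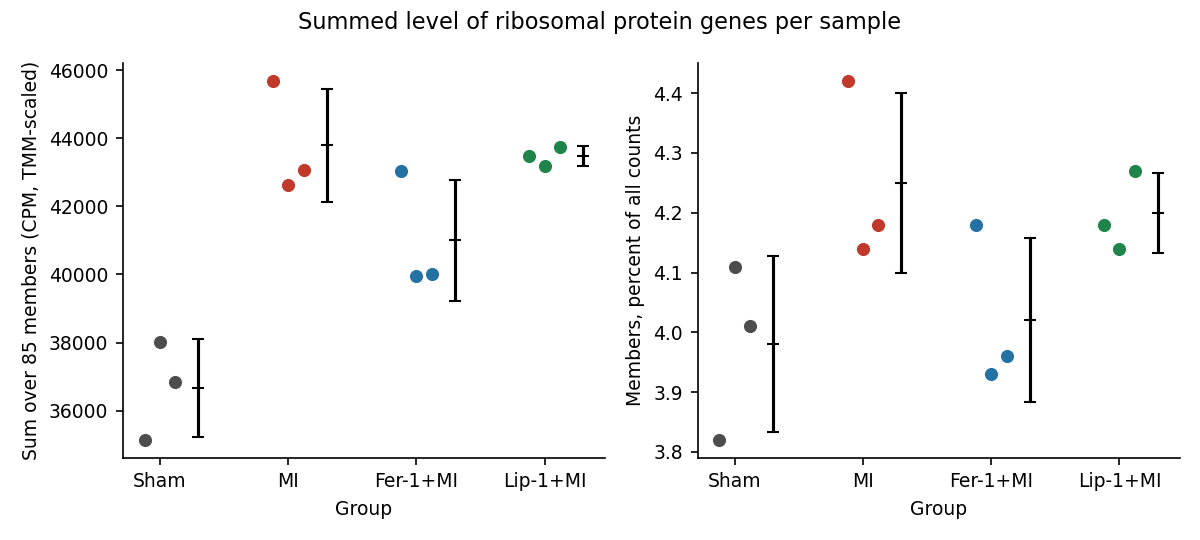
Summed level of the 85 members in each of 12 samples, in TMM-scaled CPM (left) and as percent of all counts (right); neither axis starts at 0. Points are samples and bars the group mean ± SD (n = 3). On the left all 3 Sham samples (35142 to 38021 CPM) lie below all others, and on the right the highest Sham sample (4.11%) lies above 2 of the Fer-1+MI samples.

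In the edgeR quasi-likelihood test with Benjamini-Hochberg adjustment, 70 of 85 members were higher in MI than in Sham and 0 were lower, while 22.8% of all tested genes were higher and 20.8% lower. The median member differed by 0.26 on the log2 scale (1.19-fold), against 0.00 over all genes, and 83 members had a positive value (49.5% of all genes). Members can shift together within a sample, so these counts are not of 85 separate observations. With library size as the only scaling, 24 members were higher and 0 lower, the background split was 14.3% higher and 35.1% lower, and the median was 0.09 where that of all genes was -0.17. A change of scaling moves all genes by about the same amount, so the distance of 0.26 from members to the median gene is nearly the same by construction under both. Limma on log2(FPKM + 1) also called 24 higher (background 13.6%). Of the 70 members past the threshold, 1 (Rpl36a) had a value below 0 under library size alone.

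Over all 85 members the values ran from -0.80 to 1.10, and the middle 50% lay between 0.20 and 0.29. The members past the threshold, other than Rpl39l, ran from 0.15 (Rpl36a, -0.02 under library size alone) to 0.38. In the 60S subunit 45 of 53 were higher, with a median of 0.25, and in the 40S subunit 25 of 32 were higher, with a median of 0.26. All 3 MI samples lay above all 3 Sham samples in 70 members, against 27.1% of all tested genes. Members at 100 FPKM or more were called in 64 of 73 cases and lower ones in 6 of 12. Entries that span under 1000 bp on the genome, as copies without introns do, were called in 10 of 18 cases and longer ones in 60 of 67.

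**Figure D2:**
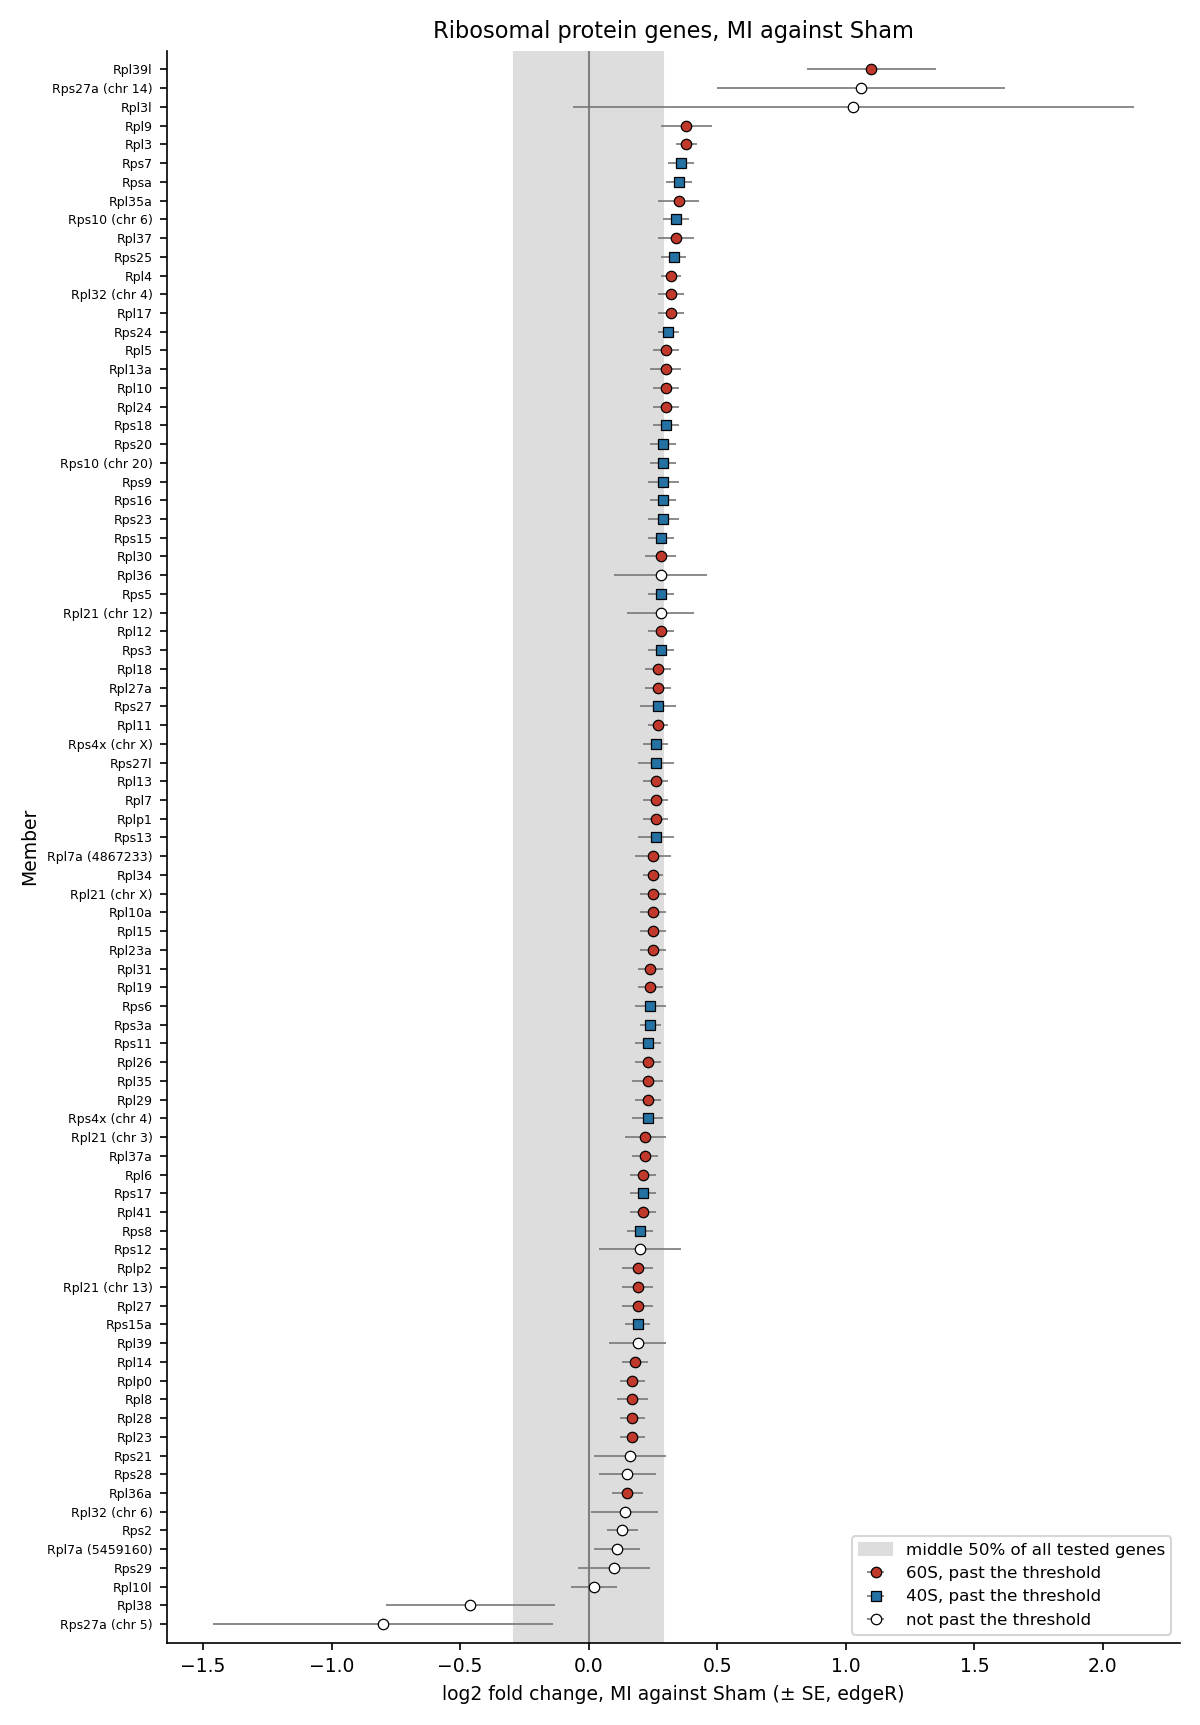
Log2 fold change of 84 members (1 is not shown), MI against Sham (x axis, ± SE, edgeR), with members ordered by value. Filled circles (60S) and squares (40S) passed the threshold and open circles did not. The grey band is the middle 50% of all tested genes; the middle 50% of members lie between 0.20 and 0.29, and the widest errors belong to Rpl3l and to both entries of Rps27a.

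Among the large-subunit proteins, Rpl3 (ENSRNOG00000016896, chr7:121297355-121302740 in the files' coordinates) had the smallest adjusted p. It helps to form the peptidyl transferase centre. Its level was 899, 973 and 944 CPM in Sham and 1279, 1207 and 1174 CPM in MI. The groups did not overlap and differed by 0.38 ± 0.04 on the log2 scale (SE, edgeR adjusted p = 9.74e-07). Rpl5 and Rpl11 carry the 5S ribosomal RNA and, when not built into ribosomes, bind Mdm2, the ubiquitin ligase of p53. Rpl5 was at 766, 824 and 780 CPM in Sham and 1036, 935 and 949 CPM in MI (0.30 ± 0.05, edgeR adjusted p = 2.78e-05). Rpl11 was at 419, 452 and 445 CPM in Sham and 543, 520 and 524 CPM in MI (0.27 ± 0.04, edgeR adjusted p = 3.22e-05). Both showed no overlap between the groups and lay close to the median of the set. Rpl13a, known beyond the ribosome for silencing inflammatory mRNAs after its release, rose by 0.30 (edgeR adjusted p = 0.000265). The next 3 entries, with low levels for this set, also rose. Rpl9 was at 18.8, 23.6 and 23.2 CPM in Sham and 30.2, 25.9 and 29.2 CPM in MI (0.38 ± 0.10, edgeR adjusted p = 0.00499), and under library size alone its adjusted p was 0.0826. Rpl35a rose by 0.35 and Rpl37 by 0.34 (edgeR adjusted p = 0.00104 and 0.000556).

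The stalk proteins, which recruit the elongation factors, had lower values than Rpl3, a difference that was not tested. Rplp0 was at 2047, 2129 and 2054 CPM in Sham and 2576, 2241 and 2217 CPM in MI, a difference of 0.17 (edgeR adjusted p = 0.0141) that was 0.01 under library size alone. MI 1 stood above the other MI samples, and without it the value was no longer past the threshold (adjusted p = 0.105). Rplp1 rose by 0.26 and Rplp2 by 0.19 (edgeR adjusted p = 0.000707 and 0.0127), and neither passed under library size alone. Without Sham 1 Rplp2 was at 0.15, with an edgeR adjusted p of 0.071.

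Among the small-subunit proteins, Rpsa was at 1364, 1423 and 1340 CPM in Sham and 1869, 1729 and 1650 CPM in MI (0.35 ± 0.05, edgeR adjusted p = 8.27e-06). Rps7 was at 601, 644 and 624 CPM in Sham and 862, 761 and 778 CPM in MI (0.36 ± 0.05, edgeR adjusted p = 1.38e-05). In both, the lowest MI sample exceeded the highest Sham sample by more than the range within Sham. Rps3, a protein of the mRNA entry channel, rose by 0.28 (edgeR adjusted p = 0.000112). Rps6, whose phosphorylation by S6 kinase is a common readout of mTORC1 activity, was at 524, 480 and 534 CPM in Sham and 649, 634 and 538.5 CPM in MI. Its groups almost touched, at 534 and 538.5 CPM, and its difference was 0.24 (edgeR adjusted p = 0.00289), which was 0.08 and not past the threshold under library size alone. Both entries of Rps4x, a protein known for its X-linked gene, rose, by 0.26 on chr X and 0.23 on chr 4 (edgeR adjusted p = 0.000165 and 0.00477), and neither passed under library size alone. For the chr 4 entry the groups overlapped, with MI 3 at 256.5 CPM and Sham 3 at 258.1 CPM. Rps2 had all MI samples above all Sham samples but was not past the threshold (0.13, edgeR adjusted p = 0.0899).

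Paralogues of ribosomal proteins were measured next. Rpl39l, a relative of Rpl39 best known from the testis, had 68, 41 and 112 counts in Sham and 137, 190 and 101 counts in MI, that is 1.38, 0.774 and 1.75 CPM against 3.03, 3.22 and 2.15 CPM. All MI samples were higher, by 1.10 ± 0.25 (2.14-fold, edgeR adjusted p = 0.00178). This was the highest value among the members called, at one of the lowest levels. With Fer-1 it was 2.38 to 2.95 CPM, and with Lip-1 it was 2.13 to 2.78 CPM. Rps27l, a p53-responsive copy of Rps27, rose by 0.26 (edgeR adjusted p = 0.00622), and stood at 0.09 under library size alone, not past the threshold. The germ-cell paralogue Rpl10l was at 15.5 ± 0.219 CPM in Sham and 15.7 ± 1.73 CPM in MI (0.02, edgeR adjusted p = 0.904).

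Rpl3l, which takes the place of Rpl3 in part of the ribosomes of adult heart and skeletal muscle, was close to 0 in these files. It had 4, 9 and 11 counts in Sham and 18, 28 and 0 in MI. With Fer-1 it had 25, 8 and 3 counts, and with Lip-1 it had 0, 10 and 6, in samples where Actc1 and Tnnt2 were abundant and Mb and Ckm low. Relative to Rpl3 its FPKM was 3.63 per 10000 in Sham and 5.91 per 10000 in MI on average, and the samples overlapped. The exact two-sided permutation test gave p = 0.5, where 3 against 3 samples allow no p below 0.1.

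The 15 members not called in MI against Sham had low counts, wide spread or a small difference. Rpl38 was at 1.18 ± 0.226 CPM in Sham and 0.856 ± 0.35 CPM in MI. Rpl36 varied within groups (169.1 ± 21.7 CPM in Sham, 204.9 ± 18.5 in MI), as did Rps12 (298.0 ± 43.7 and 343.0 ± 70.1). The remaining ones were Rpl10l, Rpl21 (the entry on chr 12), Rpl32 (chr 6), Rpl39, Rpl3l, 1 of 2 entries of Rpl7a, Rps2, Rps21, both entries of Rps27a, Rps28 and Rps29.

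Rps27a encodes a fusion of ubiquitin and S27a that is cut after translation, and it stood out by how its reads were divided. One entry (ENSRNOG00000004426, chr14:113966611-113968268) had 463.2, 139.8 and 131.1 CPM in Sham and 621.0, 317.6 and 587.8 CPM in MI. The other (ENSRNOG00000034246, chr5:138628482-138629026, inside the span of Foxj3) had 115.1, 504.4 and 496.9 CPM in Sham and 106.6, 413.1 and 119.6 CPM in MI. Where one entry was high the other was low, in samples of the same group. The chr 14 entry took from 20.2% to 85.4% of the pair's CPM over the 12 samples. It took 20.2% to 20.5% in all 3 Lip-1+MI samples. Neither entry was past the threshold in any of the 5 comparisons by edgeR, and neither should be read alone; without Sham 1 the chr 14 entry stood at 1.91 in MI against Sham (edgeR adjusted p = 0.0139). The sum of both was 578, 644 and 628 CPM in Sham and 728, 731 and 707 CPM in MI, with no overlap (0.23 ± 0.05, edgeR adjusted p = 0.000469).

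**Figure D3:**
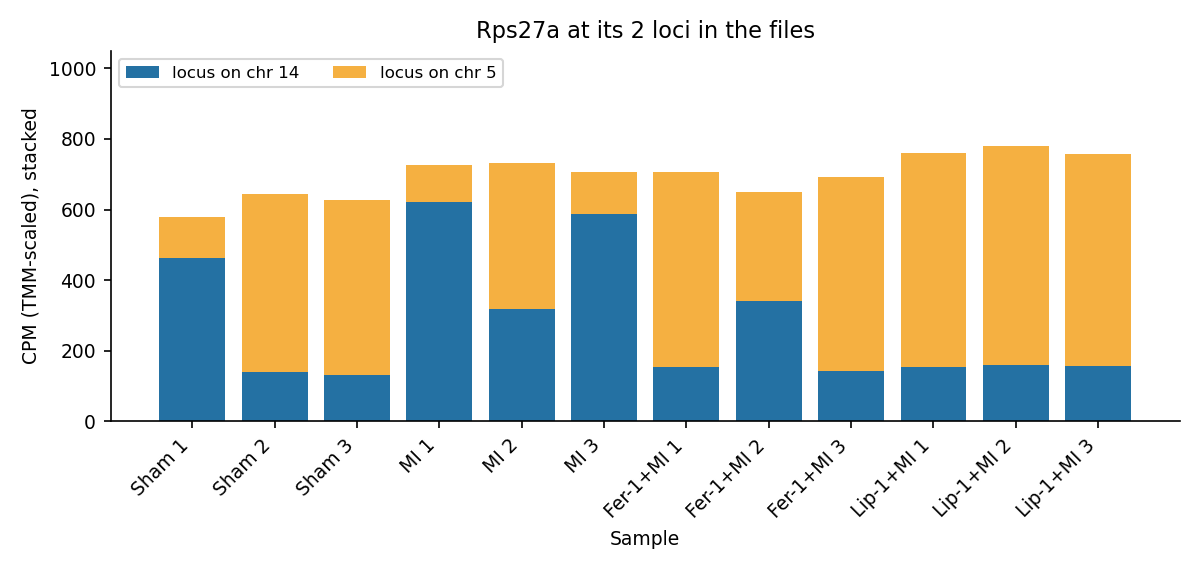
Rps27a in the 12 samples, as TMM-scaled CPM stacked over the entries on chr 14 (blue) and chr 5 (orange). The total runs from 578 to 780 CPM, while the chr 14 share runs from 20.9% to 80.1% within Sham, 43.5% to 85.4% within MI, 20.5% to 52.4% within Fer-1+MI and 20.2% to 20.5% within Lip-1+MI.

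The other symbols with several entries were steadier. The 2 entries of Rps10 split at 69.0% to 71.3%, those of Rps4x at 72.9% to 75.7%, and those of Rpl32 at 97.2% to 98.2%. The larger entry of Rps10 (chr 20) rose by 0.29 and the smaller (chr 6) by 0.34. One entry of Rpl7a held 46.3% to 61.1% of its pair, and the pair summed rose by 0.18 (edgeR adjusted p = 0.00564). With entries summed per symbol, 67 of 77 symbols were higher in MI and 0 lower, with a median of 0.26. Of the 119 further loci, 97 could be tested, and 41 were higher and 0 lower (background 22.8% and 20.8%), with the same median of 0.26. Under library size alone 8 were higher and 1 lower, where 14.3% of all tested genes were higher and 35.1% lower. The share of these loci that was higher was then below that of all tested genes. How reads were placed among near-identical copies is not stated.

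The infarct with ferrostatin-1 was then set against the infarct without a compound. The summed level in Fer-1+MI was 43052, 39953 and 40001 CPM, overlapping the MI range at its upper end. By edgeR 0 members were higher and 0 lower at the adjusted threshold, while 2.29% of all tested genes were higher and 3.07% lower. Without adjustment 27 members were lower and 1 higher at p under 0.05 (background 9.6% lower and 8.77% higher), and DESeq2 called 5 lower and 1 higher (background 4.55% and 4.14%). Those lower included Rpl5 and Rps10 (chr 6). The values lay on one side all the same. They were below 0 in 81 of 85 members, where 49.9% of all tested genes were, and their median was -0.09 (-0.07 under library size alone). A shift of a whole sample moves many members at once, so this tally is not 85 separate observations. The log2 deviation of the median member from its mean over all samples was 0.16, 0.06 and 0.07 in MI. In Fer-1+MI it was 0.07, -0.04 and -0.04, so Fer-1+MI 1 was level with MI 3. In 19 members all Fer-1+MI samples lay below all MI samples, against 11.2% of all tested genes.

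Rpl5 was at 895, 874 and 872 CPM with Fer-1, below all 3 MI samples, with a difference of -0.14 ± 0.05 (edgeR adjusted p = 0.0734). Rpl9 was at 23.1, 24.4 and 21.7 CPM, against 30.2, 25.9 and 29.2 CPM in MI (-0.30 ± 0.10, edgeR adjusted p = 0.0922). Rps10 on chr 6 was at 145.8, 133.0 and 140.8 CPM, against 163.5, 149.6 and 159.2 CPM in MI (-0.17 ± 0.05, edgeR adjusted p = 0.0619). The groups did not overlap in these genes, and none passed the adjusted threshold. Rpl31, which lies near the exit of the peptide tunnel, went the other way, at 732, 646 and 664 CPM with Fer-1, against 592, 599 and 634 CPM in MI (0.16 ± 0.05, edgeR adjusted p = 0.0594). It was the member called higher by DESeq2, by limma on FPKM and under library size alone. In Rpl3 (-0.08 ± 0.04), Rps6 (-0.02 ± 0.06) and Rplp0 (-0.06 ± 0.05) the groups overlapped. For Rpl3 only Fer-1+MI 1, at 1181 CPM, reached the MI range of 1174 to 1279 CPM. The count depended on Fer-1+MI 1, the sample with the highest sum of its group. Without it 12 members were lower, without MI 2 the count was 3, and without Fer-1+MI 2 it was 1 lower and 1 higher. The share of all tested genes called in these runs is not given here, so the counts have no background to be read against.

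With liproxstatin-1 the members stayed near the MI level. The summed level was 43474, 43187 and 43757 CPM in Lip-1+MI, inside the MI range. By edgeR 0 members were higher and 0 lower, where 3.05% of all tested genes were higher and 3.05% lower. At an unadjusted p under 0.05 there were 4 members, 1 higher and 3 lower (background 9.36% and 9.62%), and DESeq2 called 1 lower, the chr 14 entry of Rps27a (background 4.56%). The median difference was -0.02, with 33 members above 0 and 52 below (background 51.4% below). Rpl3 was at 1197, 1167 and 1208 CPM (-0.03 ± 0.04 against MI), Rps7 at 788, 795 and 797 CPM (-0.01 ± 0.05), and Rpl5 at 940, 918 and 971 CPM (-0.05 ± 0.05). Rpl37 was at 34.8, 34.6 and 34.4 CPM against 40.9, 36.8 and 38.4 CPM in MI, and Rpl35a at 54.8, 55.6 and 62.7 CPM against 60.4, 67.5 and 67.4 CPM. Their differences were -0.16 and -0.17, with edgeR adjusted p of 0.195 and 0.22. A p that misses the threshold does not show equal levels, and for a typical member such as Rpl5 the standard error was 0.05.

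Against Sham, 45 members were higher and 0 lower in Fer-1+MI (background 19.6% higher and 16.7% lower), with a median of 0.15, and 64 were higher and 0 lower in Lip-1+MI (background 20.8% and 18%), with a median of 0.23. Under library size alone these counts were 4 and 18 (background 11.7% and 11.8% higher). The count for Fer-1+MI was 25 without Sham 1 and 28 without Fer-1+MI 1 (background in these runs not given). These comparisons use the Sham samples that MI was also set against, and doses differ between the compounds, so the values stand side by side. As shares of all counts the members took 4.02% ± 0.137 with Fer-1 and 4.20% ± 0.0666 with Lip-1. In the test over all 4 groups, 67 of 85 members passed (background 44.3%).

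**Figure D4:**
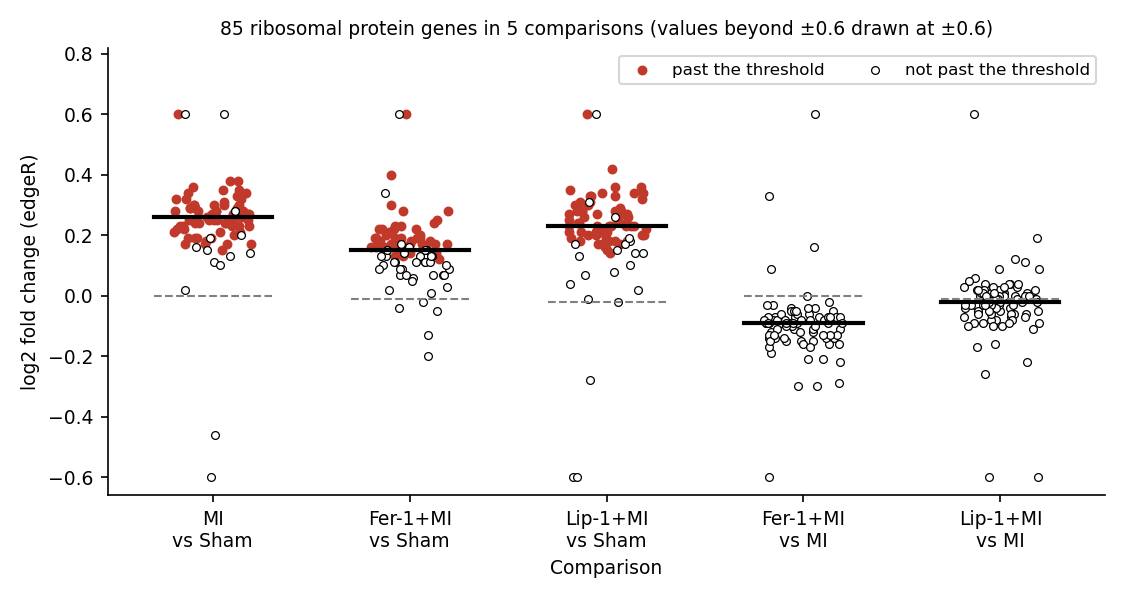
Log2 fold changes (y axis, edgeR) of the 85 members in 5 comparisons (x axis), with values beyond ±0.6 drawn at the edge. Red points passed the threshold, black bars are member medians and dashed bars the medians of all tested genes. Member medians were 0.26, 0.15 and 0.23 against Sham, and -0.09 and -0.02 against MI; comparisons share the Sham or the MI samples.

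The rest of the translation machinery was read from lists, with MI against Sham first. The lists overlap. Many of the TOP mRNAs, such as Eef1g, also stand on the elongation, initiation, biogenesis or chaperone list, so their calls are counted in each. Of 19 other mRNAs known to carry a TOP tract, 17 were higher and 0 lower, with a median of 0.28, and 11 were higher and 0 lower under library size alone. Vim, which encodes the intermediate filament vimentin and also marks mesenchymal cells, was at 1651 ± 17.2 CPM in MI and 1018 ± 36.5 in Sham (0.70, edgeR adjusted p = 6.46e-11). Hnrnpa1, a splicing regulator, rose by 0.48 and Cct4, a chaperonin subunit, by 0.51. The elongation and termination factors were higher in 10 of 14 cases and lower in 3, with a median of 0.27 (6 and 4 under library size alone, with a median of 0.11). The termination factors Etf1 (0.48) and Gspt1 (0.33) and the elongation factor subunit Eef1g (0.32) rose. Eef2k, the kinase that inhibits elongation, fell by 0.45 on the log2 scale, and Eef1a2, the muscle form of the tRNA-delivering factor, fell by 0.29. Of 36 initiation factors 22 were higher and 1 lower, led by the helicase Eif4a2 (0.56), Eif2s2 (0.47) and Eif6, which keeps the subunits apart (0.55). Under library size alone this became 9 higher and 8 lower, with a median of 0.00. Of 20 cytosolic aminoacyl-tRNA synthetases 12 were higher and 2 lower (5 and 5 under library size alone), and of 20 chaperones and import factors of nascent chains or ribosomal proteins 12 were higher and 1 lower (8 and 5).

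The genes that build ribosomes held both higher and lower members. Of 63 ribosome biogenesis factors 23 were higher and 5 lower, with a median of 0.09 that was -0.07 under library size alone, where 15 were higher and 20 lower. Rcl1, a nucleolar factor of 18S rRNA maturation, was at 74.9 ± 4.35 CPM in MI and 36.7 ± 1.5 in Sham (1.03, edgeR adjusted p = 3.36e-10). Nop58, a core protein of the snoRNPs that methylate rRNA, rose by 0.66, while the rRNA modifying enzymes Nop2 and Nat10 fell by 0.30 and 0.36. RNA polymerase I and its factors were higher in 5 of 19 cases and lower in 3, with a median of 0.03 (-0.14 under library size alone), shares close to the 22.8% and 20.8% of all tested genes. Among its subunits were Polr1e (0.96), Polr1c (0.52) and Polr1b (-0.34). Of 74 mitochondrial ribosomal proteins, 7 were higher and 5 lower, with a median of -0.03, and under library size alone 2 were higher and 35 lower.

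In the mTORC1 list, 5 of 25 genes were higher and 11 lower (4 and 18 under library size alone). Ddit4, a stress-induced inhibitor of the complex, was at 392.3 ± 35.0 CPM in MI and 115.3 ± 6.91 in Sham (1.77, edgeR adjusted p = 4.09e-10). Castor1, an arginine sensor that restrains the complex, rose by 1.30, and the translation repressor Eif4ebp1 by 0.62. Its relative Eif4ebp2 fell by 0.70, Sesn1 by 0.91 and the complex subunit Mlst8 by 0.90. In the list of the p53 response to ribosome stress 6 of 13 were higher and 2 lower, with a median of 0.04 (-0.12 under library size alone). The p53 gene itself rose by 0.31, Cdkn1a, the cell cycle inhibitor it induces, by 0.93 and Btg2 by 0.96. Of 8 related ribosomal genes outside the rule 5 were higher and 0 lower (1 and 1 under library size alone). Among them Rpl22l1, a relative of Rpl22, rose by 0.36 and Rack1, a scaffold on the small subunit, by 0.21.

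**Figure D5:**
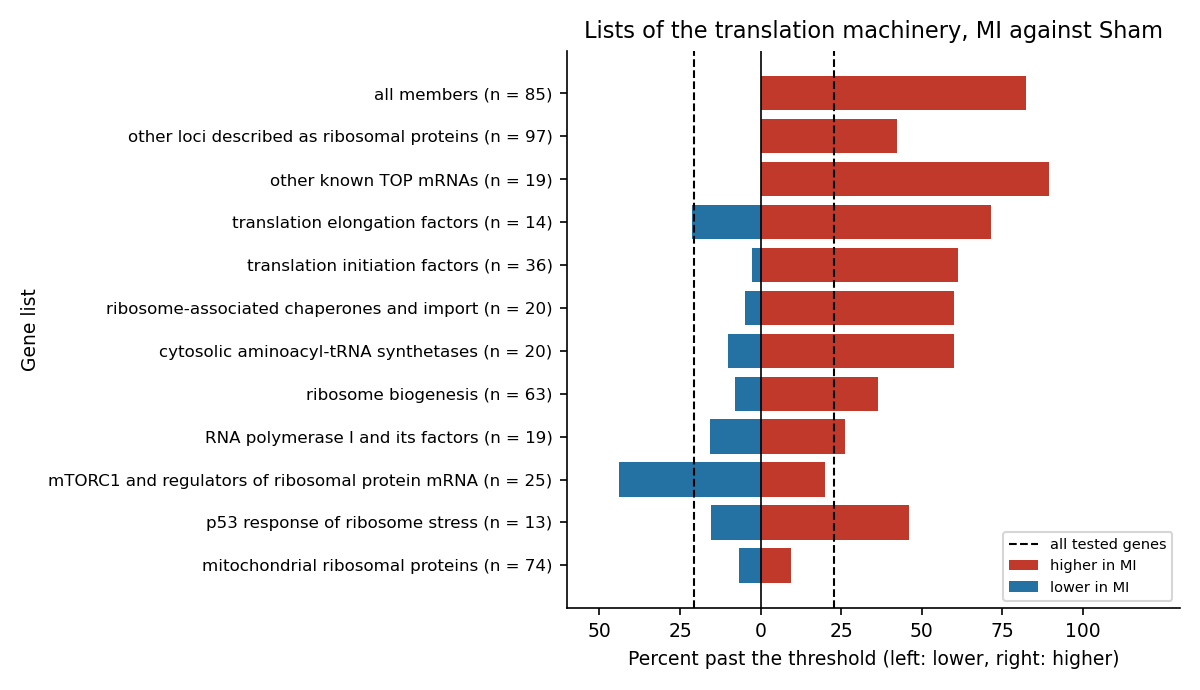
Percent of tested genes past the threshold in each list, MI against Sham (x axis; red to the right higher, blue to the left lower, TMM scaling), with dashed lines at 22.8% and 20.8% for all tested genes. The lists share genes, so the bars are not separate groups. Members were called in 70 of 85 cases and other TOP mRNAs in 17 of 19; under library size alone the lists of biogenesis, RNA polymerase I, p53 response and mitochondrial ribosomal proteins also had more lower than higher genes, as the mTORC1 list has here.

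With either compound few of these genes passed against MI. Over all tested genes 3.07% were lower and 2.29% higher with Fer-1, and 3.05% lower and 3.05% higher with Lip-1. With Fer-1 the TOP mRNAs Vim (-0.31, edgeR adjusted p = 7.73e-05), Eef1b2 (-0.15) and Eef1d (-0.18) were lower. So were 4 of 20 tRNA synthetases, among them Gars (-0.25) and Eprs (-0.21), and 4 of 63 biogenesis factors, among them Nop56 (-0.25) and Fbl (-0.22), both of the methylation snoRNPs. Under library size alone 1 TOP mRNA, 2 synthetases and 3 biogenesis factors were lower. With Lip-1, 4 synthetases were lower, with Iars1 at -0.26 and Eprs at -0.19, and 4 biogenesis factors, with Dkc1 at -0.28, Fbl at -0.22 and Gar1 at -0.37. Of the 19 TOP mRNAs, 1 was higher with Lip-1 and 1 was lower, Hnrnpa1 (-0.19, edgeR adjusted p = 0.00541). Rragc, a GTPase that brings mTORC1 to lysosomes, was higher with both compounds (0.21 with Fer-1 and 0.36 with Lip-1), as was the autophagy receptor Sqstm1 (0.28 and 0.20). Both comparisons use the same MI samples.

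Cell markers moved beside the members. The 5 smooth muscle markers all rose in MI, and their summed level was 1279 to 1380 FPKM in Sham against 2048 to 2212 in MI. With Fer-1 the sum was 1583 to 1586 FPKM, and with Lip-1 it was 1811 to 2071. Of 7 fibroblast markers 3 were higher and 2 lower, with sums of 3255 to 3384 FPKM in Sham and 3670 to 4130 in MI, and all 4 mesothelial markers rose. Of 12 heart muscle markers 3 were higher and 3 lower, with sums of 16541 to 16905 FPKM in Sham and 15769 to 17627 in MI. Macrophage markers (3 of 7 higher, 2 lower) summed to 373 to 406 FPKM in Sham and 338 to 402 in MI. Endothelial markers (1 of 5 higher, 1 lower) summed to 39.9 to 40.5 FPKM in Sham and 32.7 to 37.7 in MI, and erythroid markers (0 of 4 higher, 2 lower) to 19.0 to 25.6 FPKM in Sham and 10.1 to 14.5 in MI, neither with overlap. Neutrophil and lymphocyte markers had 0 genes past the threshold of 3 and 2 tested by edgeR (1 and 0 at an unadjusted p under 0.05). The part of cell composition in the members' values was not tested.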

How the data were processed

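Members and gene lists were chosen with earlier results of these data known. The authors deposited whole-number counts per gene, not normalised, and FPKM values that they had scaled for gene length and depth. Per the submitters' processing notes, the authors used HISAT2 2.2.1 and StringTie 2.1.6, with cutadapt 1.9, FastQC, edgeR and DESeq2 named in no order; the genome build and the use of strand in counting are not given in the sources used here. Per the labels' protocols, libraries were poly(A)-selected and made with dUTP from RNA with an integrity number over 7, and read as pairs of 150 bp. Of 32623 genes in the count table, 16910 passed edgeR's filterByExpr (minimum count 10, minimum total 15). All 12 samples entered 1 fit by group (edgeR 4.0.16, TMM, robust quasi-likelihood, 8 residual degrees of freedom), with Benjamini-Hochberg adjustment over all tested genes and a threshold of 0.05. The scripts were tested on simulated data. DESeq2 1.42.0 and limma 3.58.1 on log2(FPKM + 1) served as alternatives. CPM and FPKM are given per sample or as mean ± SD (n = 3). Log2 fold changes are given with their SE. The Rpl3l ratio was taken on a linear scale because 2 samples were at 0. Named were up to 8 members with the largest change past the threshold per comparison, a fixed set of 18 symbols, and, by smallest p, up to 3 genes in each direction of a list; Rps2, Rpl31, Rpl36, Rpl38, Rps12 and Rpl9 against MI were named after their values were seen. Of the fixed symbols, Rpl22 and Rps19 had no entry. Entries that overlap another gene (36 members) may share its reads. The values of 1 member and 1 related gene are not reported here singly.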

Additional observations from a re-analysis of the deposited data

How the results depend on the processing

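The rise in MI kept its direction under each alternative run, but its size and count rest on the scaling. Against 70 members higher and a median of 0.26 in MI over Sham, library size alone gave 24 and 0.09, limma on log2(FPKM + 1) 24 and 0.10, on log2(FPKM + 0.1) 25 and 0.10, and without a filter 22 and 0.10. The summed ratio of 1.19 was 1.07 from FPKM and 1.07 under library size alone. For Fer-1+MI over Sham (45, 0.15) library size alone gave 4 and 0.01, and the limma settings 5 and 0.02. For Lip-1+MI over Sham (64, 0.23) they gave 18 and 0.06, then 24, 24 and 20, each with 0.08. Against MI, where edgeR called 0, Fer-1+MI had 1 member higher under library size alone and under both limma settings with a filter, and 1 higher and 5 lower by DESeq2; Lip-1+MI had 1 lower by DESeq2. Leaving out each replicate gave 62 to 71 higher and a median of 0.21 to 0.29 in MI over Sham, 25 to 52 and 0.11 to 0.18 in Fer-1+MI over Sham, 53 to 69 and 0.19 to 0.25 in Lip-1+MI over Sham, 0 to 1 higher and 0 to 12 lower in Fer-1+MI against MI (median -0.13 to -0.07), 0 in Lip-1+MI against MI (median -0.04 to 0.02), a summed ratio of 1.17 to 1.22 and a difference in the Rpl3l ratio of 0.303 to 5.24 per 10000. Leaving out both Sham 1 and MI 1, chosen after seeing the data, gave a median of 0.19 in MI over Sham and 29 members higher in Fer-1+MI over Sham. The number of members higher in MI over Sham in that run is not given here. Among the named members, Rpl9, Rplp0, Rplp2, Rps27l and Rps4x (chr 4) then lost the call in MI over Sham. The chr 14 entry of Rps27a gained one. Whether replicate numbers pair the samples is not settled. The correlation of same-numbered samples was -0.024 to 0.088 over 18 pairs, and 7 of 12 samples correlated best with their own number. With the replicate number as a block, 4 members were lower in Fer-1+MI and 1 in Lip-1+MI, each against MI. No share of all tested genes is given for the block run or the runs that leave out samples, so their counts have no background. The cause of these shifts was not tested. Of the named members' values under alternatives, 2064 kept their direction and side of the threshold, 99 lost the call and 18 gained one. Depth limits Rpl3l, Rpl38 and Rpl39l, at 0 to 190 counts per sample.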
